A study of Homo sapiens with 16 samples.

Results

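KIT and 7 other genes that mark luminal progenitor cells of the human mammary gland were followed through the perturbation of EZH2 and EED in basal-like breast cancer cells. The 8 genes were KIT, PROM1, CD14, BBOX1, ELF5, EHF, ELF3 and SLPI. Each was taken as the transcript cluster (the set of probes that the array assigns to 1 transcript region) that carries its symbol and no other, and each had exactly 1 such cluster, so 8 of the 33297 clusters on the array were read. Of these, 7 were bright enough to be tested, and ELF5 was not. Gene expression was measured on Affymetrix Human Gene 1.0 ST arrays, 2 for each of 8 groups and 16 in all, in HCC70 and MDA-MB-468, established breast cancer cell lines of the basal-like type. HCC70 cells carried an shRNA against EZH2 (shEZH2), an shRNA against EED (shEED) or an EZH2 cDNA vector, which the titles call fip EZH2. Their controls were HCC70 cells with a scrambled shRNA in set a, HCC70 cells with a scrambled shRNA in set b, and HCC70 cells with plKO Puro, an empty vector. MDA-MB-468 cells carried shEZH2, with scrambled shRNA as the control. All 8 groups were infected with virus in the presence of 6 µg/ml polybrene and were then kept under 1 µg/ml puromycin, the controls included.

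Luminal progenitors are the dividing cells of the mammary duct that give rise to the mature luminal and milk-producing cells, and basal-like tumours are known to resemble them in expression. KIT is a receptor tyrosine kinase of the cell surface that answers to its ligand KITLG (stem cell factor) and is used to sort these cells. EZH2 encodes the methyltransferase of Polycomb repressive complex 2, which silences genes by methylating histone H3, and EED encodes a partner in that complex without which the enzyme does not work. The complex is known to gather at promoters rich in CpG dinucleotides.

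The promoters of the genes whose levels moved most are shown because they differ in CpG content, a property that the choice of genes did not use. The sequences are from RefSeq on GRCh38.p14 and cover the 250 bases before a gene's start, 5′ to 3′ on the gene's own strand, with each CpG in capitals. Windows were matched by symbol for 7 of the 8 genes, all but SLPI, and numbered 12 in all. Those printed are KIT at chr4:54657707-54657956 on the plus strand, the PROM1 window richest in CpG at chr4:16083730-16083979 on the minus strand, CD14 at chr5:140633176-140633425 on the minus strand and the upstream BBOX1 window at chr11:27040565-27040814 on the plus strand.
KIT: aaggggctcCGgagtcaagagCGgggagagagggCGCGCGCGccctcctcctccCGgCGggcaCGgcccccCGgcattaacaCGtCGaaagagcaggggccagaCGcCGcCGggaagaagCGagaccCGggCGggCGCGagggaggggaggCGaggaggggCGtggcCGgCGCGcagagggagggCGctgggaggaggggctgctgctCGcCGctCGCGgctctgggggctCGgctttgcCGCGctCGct
PROM1: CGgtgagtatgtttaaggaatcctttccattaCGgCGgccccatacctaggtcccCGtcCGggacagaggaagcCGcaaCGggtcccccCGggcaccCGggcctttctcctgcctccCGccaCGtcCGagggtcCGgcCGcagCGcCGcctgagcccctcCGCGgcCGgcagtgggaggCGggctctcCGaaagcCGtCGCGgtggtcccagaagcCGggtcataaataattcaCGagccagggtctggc
CD14: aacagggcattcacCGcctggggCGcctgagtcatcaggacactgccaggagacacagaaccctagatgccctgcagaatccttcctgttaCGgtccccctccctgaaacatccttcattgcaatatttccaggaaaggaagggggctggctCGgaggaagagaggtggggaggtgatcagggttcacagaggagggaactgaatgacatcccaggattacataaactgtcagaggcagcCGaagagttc
BBOX1: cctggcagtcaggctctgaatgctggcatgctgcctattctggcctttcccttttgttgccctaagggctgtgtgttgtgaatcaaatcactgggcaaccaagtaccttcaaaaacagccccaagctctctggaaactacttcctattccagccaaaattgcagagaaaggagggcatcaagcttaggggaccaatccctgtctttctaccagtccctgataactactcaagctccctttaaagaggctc

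The KIT window held 34 CpG and was 76.4% G or C, and 93.2% of the 35116 windows in the table held fewer CpG. PROM1 has 4 annotated starts, whose windows held 13, 26, 17 and 5 CpG. The CD14 window held 5, both BBOX1 windows 0, the ELF5 window 2, the EHF windows 4 and 2, and the ELF3 window 4, against a median of 11 over all windows. KIT and PROM1 are thus the only ones of the 7 genes with a window above that median. The letters GGAA, the core that ETS factors such as ELF5, EHF and ELF3 bind, were searched on both strands and occurred in 11 of the 12 windows, against 92.7% of all windows. A match of this kind is a description of the letters and no evidence of binding.

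The deposited values were log2 signals. A cluster was tested where at least 2 arrays reached log2 6, and 43.1% to 44.5% of clusters reached it on an array. The targeted genes were low where the labels say they should be. EZH2 stood at 8.50 and 8.58 in the HCC70 shEZH2 arrays, against 10.01 and 9.998 in set a, and at 8.39 and 8.48 in the MDA-MB-468 shEZH2 arrays, against 10.07 and 10.14 in scrambled. EED stood at 7.54 and 7.49 in the shEED arrays, against 8.35 and 8.31 in set b. In the EZH2 cDNA arrays EZH2 read 10.20 and 10.27, against 9.94 and 9.94 in plKO Puro, a difference of 0.29 ± 0.07 (SE) that did not pass the test (limma adjusted p = 0.0961). The 5 epithelial markers EPCAM, CDH1, KRT8, KRT19 and KRT7 reached log2 6 in all 8 groups, while the mast cell markers with a cluster, 3 of 5, were below it in all groups. Of the 6 leukocyte and monocyte markers, CD68 reached log2 6 in every group, CSF1R did so in MDA-MB-468 shEZH2, and the defining gene PTPRC in none. These markers bear on KIT, which mast cells carry, and on CD14, which monocytes carry. The sources do not say that duplicates came from separate cultures. A p-value here sets a difference of group means against the spread of duplicates pooled over the groups, and that spread may be technical. In bulk RNA, fewer cells of a type and less RNA per cell cannot be told apart.

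Across the 4 treatments the markers did not move as 1 block. In HCC70 with shEZH2, KIT, PROM1 and CD14 fell against set a and the other 4 tested genes did not pass the test. In HCC70 with shEED, KIT rose while PROM1, CD14 and BBOX1 fell against set b. With EZH2 cDNA, KIT fell against plKO Puro and no other member passed. In MDA-MB-468 with shEZH2, PROM1, CD14, BBOX1 and EHF fell and KIT, already dim, did not pass. A change is the treated mean minus the control mean in log2 units, its error is the standard error of limma's fit with 2 arrays per group, and a gene was called at a Benjamini-Hochberg adjusted p under 0.05 over the 16175 clusters tested.

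Some markers of other mammary cell types differed between the same groups. Of 7 mature luminal markers, GATA3, FOXA1, XBP1 and AGR2 reached log2 6 in the mean of every group, and the defining genes ESR1, PGR and TFF1 in none. AGR2 read 9.32 and 9.22 with shEZH2 in HCC70, against 10.07 and 10.05 in set a. With shEED it read 8.94 and 9.24, against 10.18 and 10.14 in set b. The list was mixed. With shEZH2 the means of GATA3 (8.95 against 8.74), XBP1, ESR1 and TFF1 were above set a, and those of FOXA1 (7.85 against 8.27) and PGR below. With shEED the means of XBP1 (10.94 against 10.78) and TFF1 were above set b, and those of GATA3 (8.25 against 8.57), FOXA1, ESR1 and PGR below. The summed log2 signal of the 7 was 51.0 with shEZH2, against 51.5 in set a, 49.6 with shEED, against 51.3 in set b, and 51.8 with EZH2 cDNA, against 51.5 in plKO Puro. Of 6 markers of basal-like lines, 4 had a cluster, and EGFR, KRT5 and KRT14 reached log2 6 in the mean of every group. CRYAB did so in every group but shEED, where it read 5.40 and 5.34, against 7.61 and 7.42 in set b. KRT14 read 9.42 and 9.28 with shEZH2, against 10.19 and 10.15 in set a. In the other HCC70 controls KRT14 read 9.50 and 9.36 in set b and 9.24 and 9.26 in plKO Puro, so set a stood apart. The 4 summed to 37.1 with shEZH2, against 39.4 in set a, 35.8 with shEED, against 38.9 in set b, 39.3 with EZH2 cDNA, against 37.6 in plKO Puro, and 40.7 in MDA-MB-468 shEZH2, against 41.5 in scrambled. The size of these differences in HCC70 rested on the control. The shEZH2 sum was near that of plKO Puro, and the EZH2 cDNA sum lay between those of set b and set a. The shEED sum was below all the HCC70 controls. The part of these markers in the members' results was not tested.

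**Figure D1:**
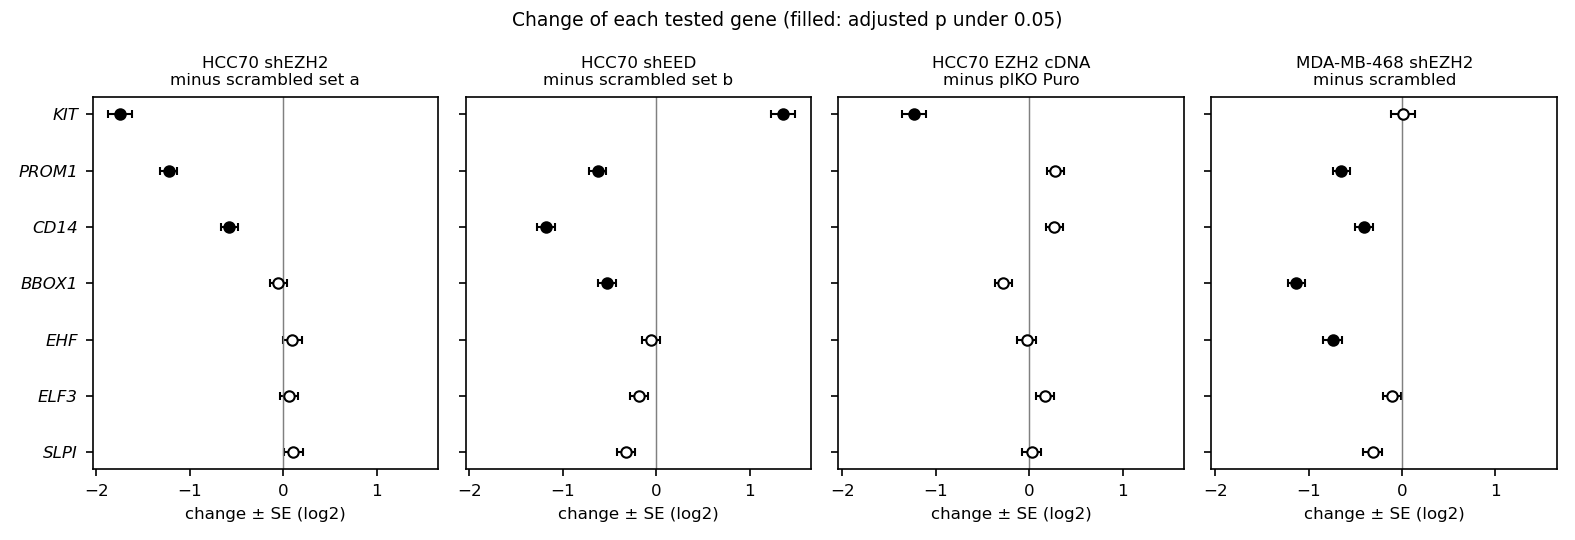
Change of each of the 7 tested genes on the log2 scale (horizontal axis, treated mean minus control mean, bars for the standard error) in the 4 treatments, 1 panel each, with filled points for an adjusted p under 0.05. KIT lies at -1.74 with shEZH2, 1.36 with shEED and -1.24 with EZH2 cDNA in HCC70, and at 0.01 with shEZH2 in MDA-MB-468.

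With shEZH2 in HCC70, 3 of the 7 tested members were called lower and 0 higher, where 4.06% of all tested clusters were called lower and 7.3% higher. With shEED, 3 were called lower and 1 higher, against 7.53% and 6.63% of all clusters. With EZH2 cDNA, 1 was called lower and 0 higher, against 0.068% lower and 0.909% higher. In MDA-MB-468, 4 were called lower and 0 higher, against 5.57% and 2.73%. BBOX1, among these 4, was tested only because both MDA-MB-468 scrambled arrays reached log2 6. The median change of the 7 members was -0.05 with shEZH2 in HCC70, -0.32 with shEED, 0.03 with EZH2 cDNA and -0.41 in MDA-MB-468, beside medians over all tested clusters of 0.01, 0.02, 0.02 and -0.02. In fits of only the 4 arrays of a comparison, which leave fewer arrays to estimate the spread, the calls of KIT with EZH2 cDNA (adjusted p = 0.101), of CD14 with shEZH2 in HCC70 (adjusted p = 0.0933) and of all 4 genes in MDA-MB-468 (adjusted p from 0.0522 for BBOX1 to 0.178 for CD14) were lost.

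KIT gave the widest spread of the 8 genes. Its signal was 4.40 and 4.75 in HCC70 shEZH2, against 6.26 and 6.37 in set a. In HCC70 shEED it was 8.37 and 8.55, against 7.04 and 7.16 in set b. In HCC70 EZH2 cDNA it was 6.49 and 6.26, against 7.64 and 7.58 in plKO Puro. In each of these 3 pairs the treated arrays lay apart from their own control arrays, below them with shEZH2 and EZH2 cDNA and above them with shEED. MDA-MB-468 arrays read 4.06 and 4.17 with shEZH2, against 4.001 and 4.21 in scrambled, with overlap and with both groups under log2 6.

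KIT fell by 1.74 ± 0.13 on the log2 scale with shEZH2 in HCC70, a 3.35-fold difference (adjusted p = 6.78e-06). Both shEZH2 arrays were below log2 6, where signals are compressed towards background, so the size is that of the signals only. With shEED, KIT rose by 1.36 ± 0.13, or 2.57-fold (adjusted p = 3.57e-05). With EZH2 cDNA it fell by 1.24 ± 0.13, or 2.36-fold (adjusted p = 0.00156). KIT was thus lower than in the controls both with shEZH2 and with EZH2 cDNA, and the difference between these changes, -0.51 ± 0.18, did not pass (adjusted p = 0.132). That contrast rested on the control used: it was -1.29 with the scrambled sets exchanged (adjusted p = 0.000628) and -0.90 with both sets (adjusted p = 0.00656). With the controls unchanged, it was -0.69 without replicate 2 of shEZH2, so it also depended on a single treated array. The changes with shEZH2 and shEED differed by -3.11 ± 0.18 (adjusted p = 3.5e-06), the largest difference between these treatments among the 7 members.

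**Figure D2:**
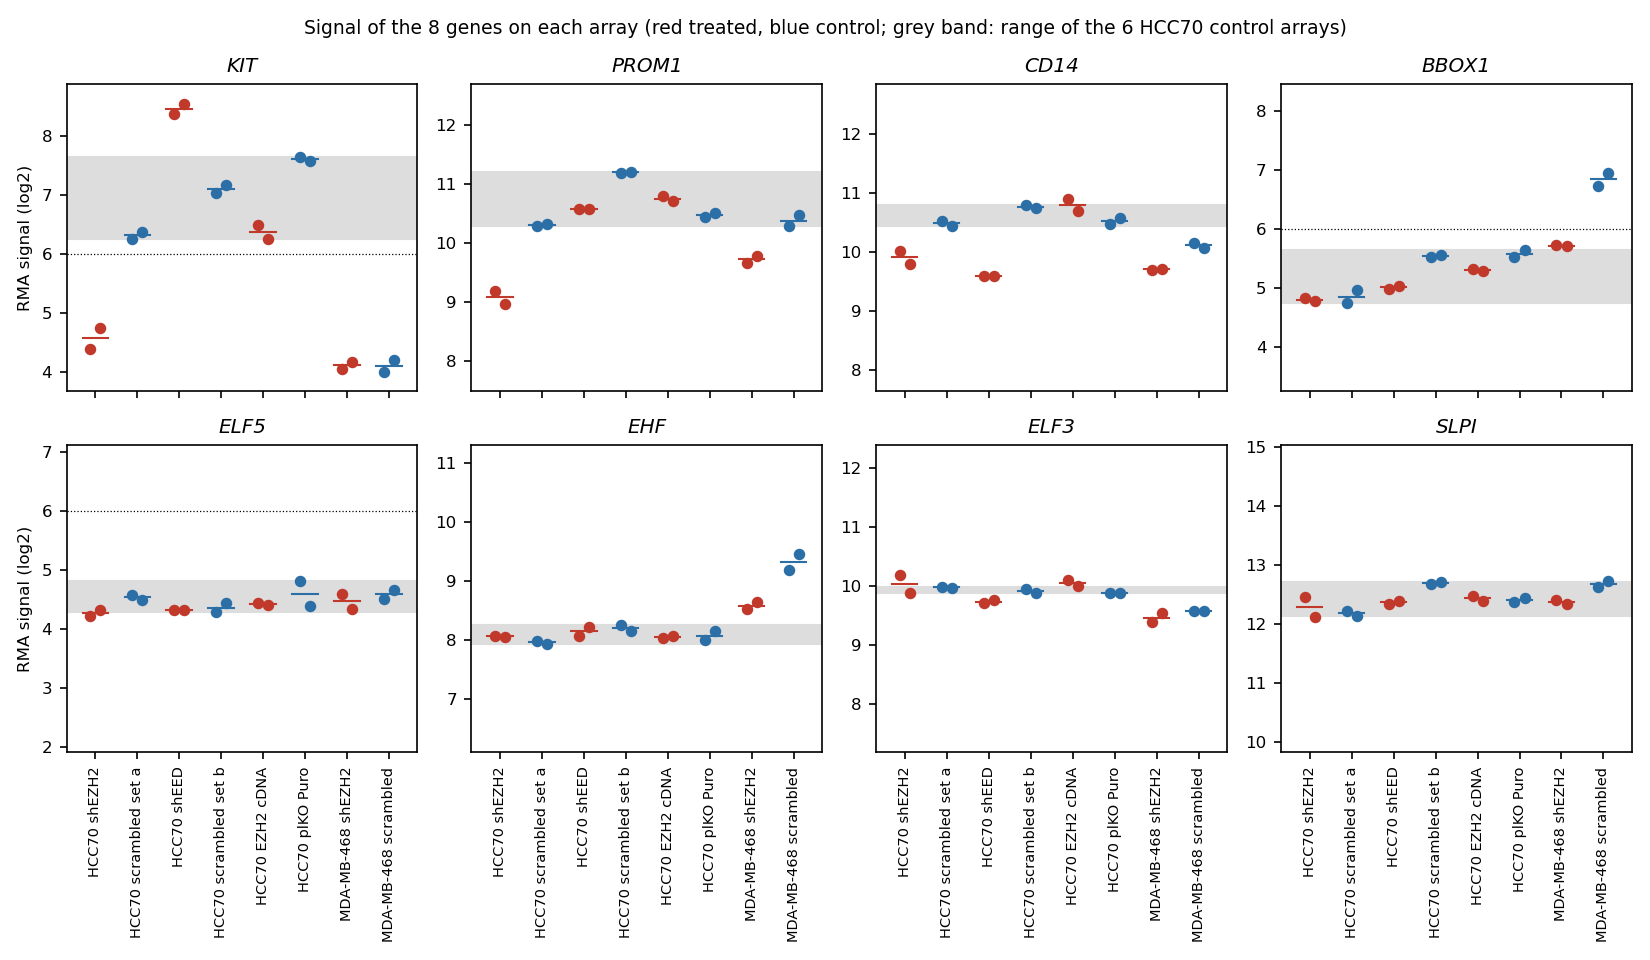
Log2 signal of each of the 8 genes on each of the 16 arrays (points, red treated and blue control), with the mean of each group as a line and the range of the 6 HCC70 control arrays as a grey band. The dotted line marks log2 6. KIT lies above its band in shEED and below it in shEZH2, and the band itself runs from 6.26 to 7.64.

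Ranked by group mean, KIT was highest in HCC70 shEED (8.46), then plKO Puro (7.61), set b (7.10), EZH2 cDNA (6.38), set a (6.32), shEZH2 (4.57), MDA-MB-468 shEZH2 (4.11) and MDA-MB-468 scrambled (4.10). Arrays of neighbouring groups overlapped at 2 places in this order, between EZH2 cDNA and set a and between both MDA-MB-468 groups. The mean of the EZH2 cDNA arrays lay inside the range of the HCC70 control arrays, which limits the KIT call in that comparison.

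PROM1 encodes prominin-1 (CD133), a membrane protein of apical protrusions that is used as a surface marker of luminal progenitors and stem cells. Its signal was 9.19 and 8.97 in HCC70 shEZH2, against 10.29 and 10.33 in set a, and the arrays did not overlap. In MDA-MB-468 shEZH2 it was 9.67 and 9.79, against 10.29 and 10.47 in scrambled, again with every shEZH2 array lower. PROM1 fell by 1.23 ± 0.09 in HCC70 (adjusted p = 7.04e-06) and by 0.65 ± 0.09 in MDA-MB-468 (adjusted p = 0.00238). Both calls held with each array of the comparison left out in turn.

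With shEED, PROM1 read 10.57 and 10.58, against 11.19 and 11.21 in set b, a fall of 0.62 ± 0.09 (adjusted p = 0.000849). That direction rests on set b. Against set a, whose PROM1 was lower, the same shEED arrays were higher by 0.27 ± 0.09 (adjusted p = 0.0388), and against plKO Puro they differed by 0.10 ± 0.09 (adjusted p = 0.482). With EZH2 cDNA the signal was 10.79 and 10.72, against 10.44 and 10.51 in plKO Puro, a difference of 0.28 ± 0.09 that did not pass (adjusted p = 0.249). Over the 8 groups PROM1 was highest in set b (11.20) and lowest in HCC70 shEZH2 (9.08).

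CD14 encodes the co-receptor that hands bacterial lipopolysaccharide to Toll-like receptor 4, and it marks luminal progenitors among mammary epithelial cells. Like PROM1, it was called lower in all 3 knockdowns against the assigned controls. Its signal was 10.01 and 9.80 in HCC70 shEZH2, against 10.52 and 10.44 in set a. With shEED it was 9.59 and 9.58, against 10.80 and 10.73 in set b. MDA-MB-468 read 9.70 and 9.70 with shEZH2, against 10.15 and 10.06 in scrambled. No treated array of these 3 comparisons reached the level of its controls.

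The fall of CD14 was 0.58 ± 0.09 with shEZH2 in HCC70 (adjusted p = 0.00215), 1.18 ± 0.09 with shEED (adjusted p = 7.88e-06) and 0.41 ± 0.09 in MDA-MB-468 (adjusted p = 0.0229). The MDA-MB-468 call was lost whichever of its 4 arrays was left out, with adjusted p from 0.0578 to 0.098. CD14 changed by 0.60 ± 0.13 more steeply with shEED than with shEZH2 when each was set against its own control (adjusted p = 0.0185), but by 0.03 when the scrambled sets were exchanged (adjusted p = 0.857), and the call was lost in 5 of the 8 fits that left out 1 array. With EZH2 cDNA it read 10.89 and 10.70, against 10.47 and 10.57 in plKO Puro, 0.27 ± 0.09 higher (adjusted p = 0.281). HCC70 shEED had the lowest CD14 mean (9.59) and EZH2 cDNA the highest (10.79), the EZH2 cDNA arrays overlapping those of set b (10.77).

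BBOX1 encodes gamma-butyrobetaine dioxygenase, the enzyme of the last step of carnitine synthesis. It reached log2 6 on 2 arrays, both of them MDA-MB-468 scrambled. There it read 5.72 and 5.70 in shEZH2, against 6.73 and 6.95 in scrambled, a fall of 1.13 ± 0.09 (adjusted p = 6.62e-05). Since BBOX1 was tested through those control arrays, its call depends on the group in which it was bright.

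In HCC70 all BBOX1 signals were under log2 6. They were 4.82 and 4.77 with shEZH2, against 4.74 and 4.96 in set a, with overlap and a difference of -0.05 ± 0.09 (adjusted p = 0.764). With shEED they were 4.99 and 5.03, against 5.52 and 5.56 in set b, a fall of 0.53 ± 0.09 (adjusted p = 0.00282), while against set a the shEED arrays were 0.16 ± 0.09 higher (adjusted p = 0.201). EZH2 cDNA arrays read 5.33 and 5.28, against 5.52 and 5.64 in plKO Puro, a difference of -0.28 ± 0.09 (adjusted p = 0.276).

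ELF5, EHF and ELF3 are ETS transcription factors of epithelial cells, and ELF5 is known from mice as a factor that luminal progenitors need to form milk-producing alveoli. ELF5 lay between 4.22 and 4.81 on all 16 arrays, under log2 6 on each, and was not tested. Its lowest group mean was 4.27 in HCC70 shEZH2 and its highest 4.60 in plKO Puro, and each group overlapped the next in the order.

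EHF, which lies next to ELF5 on chromosome 11, differed between the lines and with shEZH2 in 1 of them. In MDA-MB-468 it read 8.52 and 8.65 with shEZH2, against 9.19 and 9.47 in scrambled, a fall of 0.74 ± 0.10 (adjusted p = 0.00198). In HCC70 every EHF signal lay between 7.94 and 8.25. The HCC70 differences were 0.10 ± 0.10 with shEZH2, -0.06 ± 0.10 with shEED and -0.03 ± 0.10 with EZH2 cDNA, with adjusted p of 0.584, 0.796 and 0.957.

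ELF3 is an ETS factor of epithelia that also responds to inflammation. In HCC70 it was 10.18 and 9.89 with shEZH2, against 9.99 and 9.97 in set a, and 10.11 and 9.99 with EZH2 cDNA, against 9.88 and 9.89 in plKO Puro. The shEED arrays read 9.71 and 9.76, against 9.95 and 9.88 in set b. MDA-MB-468 gave 9.39 and 9.54 with shEZH2, against 9.57 and 9.58 in scrambled. No ELF3 difference passed the test, the largest being -0.18 ± 0.10 with shEED (adjusted p = 0.26), although both shEED arrays lay under their controls.

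SLPI encodes a secreted inhibitor of neutrophil elastase that guards mucosal surfaces. It was 12.46 and 12.13 with shEZH2 in HCC70, against 12.23 and 12.14 in set a, and 12.48 and 12.40 with EZH2 cDNA, against 12.38 and 12.45 in plKO Puro. These pairs overlapped. It was 12.35 and 12.40 with shEED, against 12.68 and 12.71 in set b, and 12.40 and 12.34 in MDA-MB-468 shEZH2, against 12.63 and 12.74 in scrambled. In the knockdown of EED and that of EZH2 in MDA-MB-468 both treated arrays were lower, by 0.32 ± 0.10 in each, and neither passed (adjusted p = 0.0528 and 0.074). Both lay near the threshold, and under some other settings the shEED result passed, as with a floor of log2 7 (adjusted p = 0.0414). Its direction rests on set b. Against set a the shEED arrays were higher by 0.19 ± 0.10 (adjusted p = 0.163), and against plKO Puro they differed by -0.04 ± 0.10 (adjusted p = 0.82).

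The controls of HCC70 themselves differed in several of these genes. Over the 6 control arrays KIT ran from 6.26 to 7.64 with a median of 7.10, a range of 1.38 that was wider than that of 97.8% of tested clusters. PROM1 ran from 10.29 to 11.21 (median 10.47) and BBOX1 from 4.74 to 5.64 (median 5.52), ranges wider than those of 91.9% and 91.2% of clusters. ELF3 ran from 9.88 to 9.99 (median 9.92), wider than 1.60% of clusters. CD14 ran from 10.44 to 10.80 (median 10.55), EHF from 7.94 to 8.25 (median 8.08) and SLPI from 12.14 to 12.71 (median 12.42), wider than 39.2%, 30.2% and 71.7%. The untested ELF5 ran from 4.29 to 4.81 (median 4.47). The median range over all tested clusters was 0.41.

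Set b was higher than set a in 5 of the 7 members and lower in 0, where 22.7% of all clusters differed in either direction. PROM1 was higher in set b by 0.89 ± 0.09 (adjusted p = 5.67e-05), KIT by 0.78 ± 0.13 (adjusted p = 0.00142), BBOX1 by 0.69 ± 0.09 (adjusted p = 0.000381), SLPI by 0.51 ± 0.10 (adjusted p = 0.00403) and CD14 by 0.28 ± 0.09 (adjusted p = 0.0453). The CD14 difference was lost with each of the 4 arrays left out, with adjusted p from 0.101 to 0.219. Set a was lower than plKO Puro in 2 members, KIT at -1.29 ± 0.13 (adjusted p = 4.85e-05) and BBOX1 at -0.73 ± 0.09 (adjusted p = 0.000268), where 24.9% of clusters differed. Set b was higher than plKO Puro in PROM1 by 0.73 ± 0.09 (adjusted p = 0.00235), 1 of the 7 members where 1.9% of clusters differed, and KIT at -0.51 ± 0.13 did not pass (adjusted p = 0.0748). The KIT difference between set a and plKO Puro, both controls, was as large as the KIT change with EZH2 cDNA.

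Against all 6 HCC70 control arrays at once, KIT, PROM1 and CD14 were again the members that were lower in the EZH2 knockdown. Both shEZH2 arrays lay below every control array in 3 of the 7 members, KIT by 1.51, PROM1 by 1.09 and CD14 by 0.43, and above in 0, where 9.26% of tested clusters lay below and 12.1% above. With the 6 arrays as 1 control group, 3 members were called, with KIT at -2.44 ± 0.31 (adjusted p = 0.000439), PROM1 at -1.58 ± 0.22 (adjusted p = 0.00111) and CD14 at -0.69 ± 0.10 (adjusted p = 0.00166), where 8.97% of clusters were called. The fits with 1 control group count the 6 arrays as independent, although they are duplicates of 3 control groups that differ. Unlike in the other fits, the spread includes differences between these control groups, so the p-values of the pooled fits are a rough guide only.

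Both shEED arrays lay above the 6 control arrays in KIT, by 0.73, and below them in CD14, by 0.85, and ELF3, by 0.12. That is 1 member above and 2 below, where 20.3% of clusters lay above and 11.2% below. With the 6 arrays as 1 control group, 2 members were called for shEED, KIT at 1.45 ± 0.31 (adjusted p = 0.00925) and CD14 at -1.003 ± 0.10 (adjusted p = 8.05e-05), where 10.9% of clusters were called. PROM1 at -0.08 ± 0.22 and BBOX1 at -0.31 ± 0.20 did not pass. The EZH2 cDNA arrays lay outside the 6 control arrays in 1 member, ELF3, which was narrowly above them, where 6.96% of clusters lay above and 4.1% below. With the pooled controls no member was called for EZH2 cDNA (limma, 0 of 7 members, and 0 at an unadjusted p under 0.05), where 0.0433% of clusters were called, and KIT stood at -0.63 ± 0.31 (adjusted p = 0.706).

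**Figure D3:**
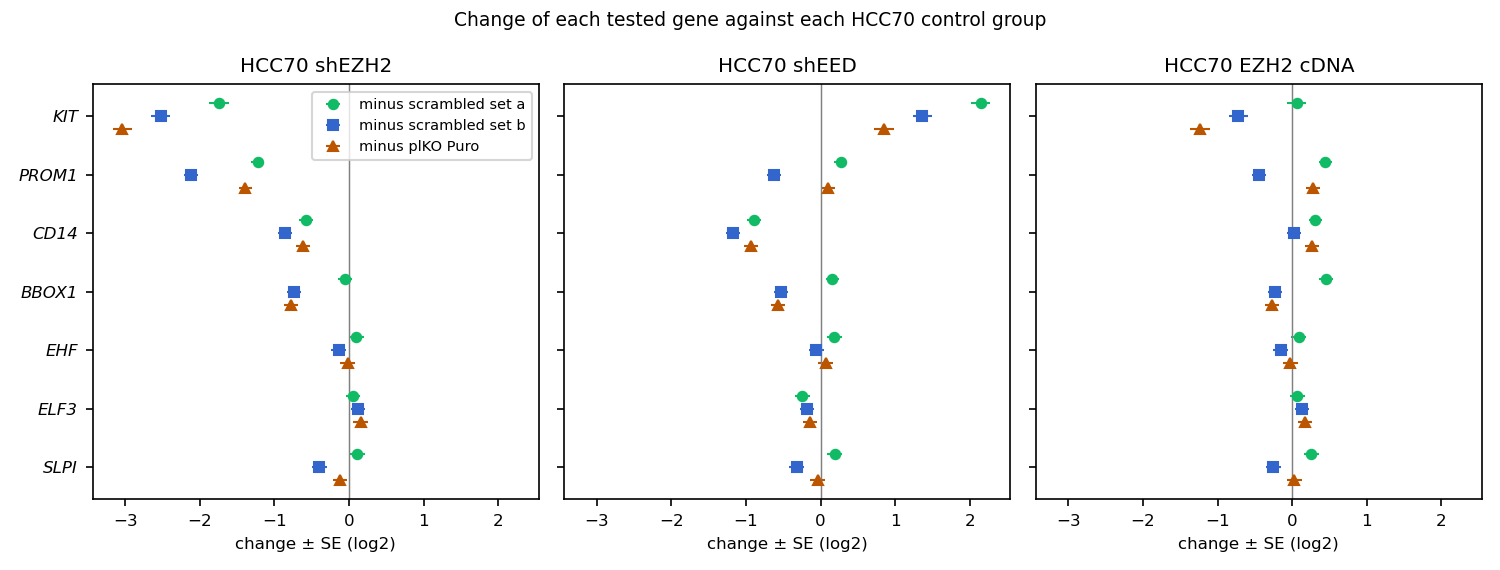
Change of each of the 7 tested genes on the log2 scale (horizontal axis, bars for the standard error) for shEZH2, shEED and EZH2 cDNA in HCC70, against scrambled set a (circles), scrambled set b (squares) and plKO Puro (triangles). KIT with EZH2 cDNA runs from -1.24 against plKO Puro to 0.06 against set a, while with shEZH2 it is below 0 against each control.

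The labels do not say which scrambled set was made for which knockdown, and the assignment used follows the blocks of the sample codes. Exchanging the sets left KIT and CD14 on the same side in both knockdowns. Against set b, the shEZH2 arrays were lower in KIT (-2.53 ± 0.13) and in PROM1 (-2.12 ± 0.09), and 5 members were called, BBOX1 (-0.74) and SLPI (-0.40) among them, where 26.7% of clusters were called. Against set a, the shEED arrays were higher in KIT (2.14 ± 0.13) and lower in CD14 (-0.89 ± 0.09), and 3 members were called with PROM1, where 36.7% of clusters were called. For EZH2 cDNA, KIT differed by -0.72 ± 0.13 from set b (adjusted p = 0.0208) and by 0.06 ± 0.13 from set a (adjusted p = 0.772).

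The response to shEZH2 was tested for a difference between HCC70 and MDA-MB-468. It differed in 4 of the 7 members, where 13.2% of clusters did, and BBOX1 was 1 of the 4 although it was tested only through its level in MDA-MB-468 scrambled. KIT (-1.75 ± 0.18, adjusted p = 0.000188) fell in HCC70 and changed by 0.01 in MDA-MB-468. PROM1 (-0.58 ± 0.13, adjusted p = 0.0153) fell in both lines and further in HCC70, its call being lost without replicate 2 of set a (-0.55). BBOX1 (1.08 ± 0.13, adjusted p = 0.000543) and EHF (0.84 ± 0.14, adjusted p = 0.00416) fell in MDA-MB-468. In HCC70 they changed by -0.05 and 0.10 and did not pass. The MDA-MB-468 arrays all read KIT under log2 6, as the HCC70 arrays of both groups did BBOX1, and at such levels signals are compressed. For CD14 the difference was -0.17 ± 0.13 (adjusted p = 0.409), for ELF3 0.17 ± 0.14 (adjusted p = 0.44) and for SLPI 0.42 ± 0.14 (adjusted p = 0.0702). With set b in place of set a, BBOX1 lost the call (0.39, adjusted p = 0.0637) and CD14 gained it (-0.46, adjusted p = 0.0354).

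Within HCC70, the shEZH2 and shEED changes differed in 3 of the 7 members, KIT, PROM1 (-0.60 ± 0.13, adjusted p = 0.0174) and CD14, where 6.31% of clusters did. The PROM1 difference was lost in all but 2 of the 8 fits that left out 1 array. The shEZH2 and EZH2 cDNA changes differed in 2 members, PROM1 at -1.51 ± 0.13 (adjusted p = 4.18e-05) and CD14 at -0.85 ± 0.13 (adjusted p = 0.00292), where 5.72% of clusters did.

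Without treatment the lines differed in all 7 tested members, where 69.2% of clusters differed. KIT reached log2 6 only on HCC70 arrays and BBOX1 only on the MDA-MB-468 scrambled arrays. Each was thus tested only through the line in which it was bright, and its call depends on that. The mean of both HCC70 scrambled sets exceeded MDA-MB-468 scrambled in KIT by 2.61 ± 0.11, in CD14 by 0.52 ± 0.08, in PROM1 by 0.38 ± 0.08 and in ELF3 by 0.37 ± 0.08. It was lower than MDA-MB-468 scrambled in BBOX1 (-1.65 ± 0.08), EHF (-1.24 ± 0.09) and SLPI (-0.24 ± 0.09). Adjusted p ran from 1.49e-09 for KIT to 0.0247 for SLPI. The PROM1 difference was -0.069 with set a alone and the SLPI difference 0.010 with set b alone, so neither direction held for both sets. SLPI also lost the call without replicate 2 of MDA-MB-468 scrambled (adjusted p = 0.179).

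Genes that act beside the 8 were read from 8 lists. Of all tested clusters, 7.3% were called higher and 4.06% lower with shEZH2 in HCC70, and 6.63% and 7.53% with shEED. The shares were 0.909% and 0.068% with EZH2 cDNA, and 2.73% and 5.57% in MDA-MB-468. The list counts below were not tested against these shares, and a count of 1 or 2 may lie near them. Many of the list calls in HCC70 rested on the control, as set a or set b stood apart from the others. Against both other HCC70 controls, a check chosen after seeing the data, 5 of the 12 list genes named below for shEZH2 were called the same way (CBLB, ETV1, MITF, SERPINA1 and TLR1). For shEED these were 4 of 22 (ELK3, GABPA, PODXL and SPDEF), and for EZH2 cDNA 2 of 8 (CXCL1 and KRT15). With another control 5, 7 and 4 of the named genes had the opposite sign, and the rest did not pass the test. Dim signals limit some of the calls that held. ETV1 reached log2 6 only on shEZH2 arrays, and SPDEF was under it both with shEED and in set b. In the list of KIT's ligand and signalling partners, 22 of 26 genes were tested. With shEZH2 in HCC70, 2 were called higher and 0 lower, the transcription factor MITF (0.70 ± 0.14, adjusted p = 0.00726) and the ubiquitin ligase CBLB (0.52 ± 0.10, adjusted p = 0.00581). With shEED, 0 were higher and 4 lower, the kinase LYN (-0.58 ± 0.12), the PI3-kinase subunit PIK3R1 (-0.56 ± 0.16), the RAS pathway inhibitor SPRED1 (-0.47 ± 0.08) and the adaptor GRB2 (-0.34 ± 0.07). In MDA-MB-468, 1 was lower, the ligand KITLG itself, which read 8.26 and 8.54 with shEZH2, against 9.18 and 9.29 in scrambled (-0.83 ± 0.13, adjusted p = 0.00331). With EZH2 cDNA, 1 was higher, GRB7 (0.52 ± 0.10, adjusted p = 0.0369). The list medians were 0.08, -0.17, -0.01 and 0.14 for shEZH2, shEED, MDA-MB-468 shEZH2 and EZH2 cDNA.

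Other luminal progenitor markers formed a list of 20 with 15 tested. With shEED, where KIT was higher, 0 were higher and 9 lower, at a list median of -0.56. Of all tested clusters, 6.63% were higher and 7.53% lower. The serum amyloid gene SAA2 fell by 2.30 ± 0.12 (adjusted p = 2.37e-07), SAA1 by 1.45 ± 0.14, the milk fat globule gene MFGE8 by 1.18 ± 0.15 and the keratin KRT23 by 1.10 ± 0.11. With EZH2 cDNA, 7 were higher and 0 lower, at a list median of 0.37, where 0.909% of all clusters were higher and 0.068% lower. Among the 7 were the chemokines CXCL8 (1.28 ± 0.18) and CXCL1 (0.97 ± 0.13), SAA2 (1.21 ± 0.12) and KRT15 (0.93 ± 0.07).

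These counts rested on the control. Against set a, 6 of the 15 were higher with shEED and 5 lower, at a median of 0.05, where 36.7% of clusters were called. Against plKO Puro, 0 were higher with shEED and 5 lower, at a median of -0.24, where 13.5% of clusters were called. MFGE8 averaged 7.61 with shEED, against 8.79 in set b, 7.56 in set a and 7.96 in plKO Puro. KRT23 averaged 9.71 with shEED, against 10.81, 9.57 and 10.36 in the same controls, so both genes were above set a. SAA2 averaged 6.09 with shEED, against 8.39 in set b, 6.95 in set a and 6.29 in plKO Puro, so its size was that of set b. For EZH2 cDNA, 12 were higher and 1 lower against set a, where 26.1% of clusters were called, and 2 were higher and 2 lower against set b, where 1.04% were. SAA2 was lower with EZH2 cDNA than in set b, by -0.89 ± 0.12 (adjusted p = 0.00408).

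With shEZH2 in HCC70, 2 of these markers were higher and 1 lower, at a list median of 0.04. The milk protein lactoferrin gene LTF rose by 2.57 ± 0.23 (adjusted p = 2.52e-05), reading 9.32 and 8.89 with shEZH2, against 6.42 and 6.65 in set a. In the other HCC70 controls LTF read 9.03 and 9.22 in set b and 8.25 and 8.08 in plKO Puro, so set a stood apart. KRT15 fell by 0.62 ± 0.07 and the integrin gene ITGA2 rose by 0.33 ± 0.06. Against set b, 0 of the 15 were higher and 10 lower, at a median of -0.84, where 26.7% of clusters were called. ITGA2 was lower there, by -0.84 ± 0.06. In MDA-MB-468, 3 were higher and 0 lower, SAA1 (1.46 ± 0.14), SAA2 (0.70 ± 0.12) and ITGA2 (0.23 ± 0.06), at a list median of 0.14.

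Among relatives of the ETS factors, 13 of 16 were tested. ETV1 rose with shEZH2 in both lines, by 1.73 ± 0.16 in HCC70 (adjusted p = 3.48e-05) and by 1.25 ± 0.16 in MDA-MB-468 (adjusted p = 0.00122). In HCC70 it read 6.16 and 5.54, against 4.23 and 4.03 in set a. In MDA-MB-468 it read 5.87 and 6.06, against 4.75 and 4.68 in scrambled. Only shEZH2 arrays reached log2 6, so ETV1 was tested through the groups in which it was bright, and its calls depend on that. It was the 1 gene called with shEZH2 in HCC70, with 0 lower. In MDA-MB-468, 2 were higher and 2 lower, the others being ETV4 (0.62 ± 0.10), GABPA (-0.85 ± 0.14) and ELF2 (-0.44 ± 0.11). With shEED, 1 was higher, GABPA (0.45 ± 0.14), and 3 were lower, ELK3 (-0.54 ± 0.09), SPDEF (-0.51 ± 0.09) and ETV5 (-0.39 ± 0.12). SPDEF averaged 5.47 with shEED, against 5.97 in set b, and ETV5 averaged 4.84, against 5.24. Both genes were thus under log2 6 in both groups. With EZH2 cDNA, 1 was higher, ETS1 (0.41 ± 0.08), and 0 lower.

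Around CD14, 8 of 14 genes of the lipopolysaccharide receptor and Toll-like receptor pathway were tested. With shEZH2 in HCC70 the receptor TLR1 fell by 0.64 ± 0.12 and the adaptor MYD88 rose by 0.39 ± 0.11. TLR2 fell by 0.83 ± 0.17 with shEED and TLR6 by 0.41 ± 0.09 in MDA-MB-468, each the 1 gene called in its comparison, and 0 were called with EZH2 cDNA. TLR2 averaged 5.20 with shEED, against 6.03 in set b. It reached log2 6 only on set b and EZH2 cDNA arrays, so it was tested through groups in which it was bright. Around SLPI, 9 of 12 WAP-domain and elastase inhibitors were tested. PI3, the elafin gene, fell by 1.39 ± 0.08 with shEED (adjusted p = 7.82e-07), by 0.55 ± 0.08 in MDA-MB-468 and by 0.36 ± 0.08 with shEZH2 in HCC70, and rose by 0.71 ± 0.08 with EZH2 cDNA (adjusted p = 0.00269). PI3 averaged 9.31 with shEED, against 10.70 in set b, 9.71 in set a and 9.09 in plKO Puro, so the direction depended on the control. Against plKO Puro, PI3 was also higher with shEZH2 (0.26 ± 0.08), and against set b it was lower with EZH2 cDNA (-0.90 ± 0.08). With shEED, 0 of this list were higher and 3 lower, WFDC12 (-0.95 ± 0.16) and SERPINB1 (-0.48 ± 0.09) being the others. WFDC12 averaged 5.22 with shEED, against 6.17 in set b, and it too reached log2 6 only on set b and EZH2 cDNA arrays. SERPINA1 rose with shEZH2 in HCC70 (0.42 ± 0.12) and WFDC2 in MDA-MB-468 (0.50 ± 0.14).

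Around BBOX1, all 8 genes of carnitine synthesis and transport were tested. TMLHE, the first enzyme of the same pathway, rose by 1.03 ± 0.12 with shEZH2 (adjusted p = 0.000228) and by 1.15 ± 0.12 with shEED (adjusted p = 7.13e-05) in HCC70. Both rises rested on the scrambled sets. Against plKO Puro, TMLHE differed by 0.14 ± 0.12 with shEZH2 (adjusted p = 0.423) and by 0.27 ± 0.12 with shEED (adjusted p = 0.153). With shEZH2 in HCC70, 2 were higher, CPT2 (0.38 ± 0.10) being the other, and 0 lower. With shEED, 1 was higher and 2 lower, ALDH9A1 (-0.49 ± 0.09) and CPT1A (-0.37 ± 0.09). CPT1A had the opposite sign with shEED against set a (0.10 ± 0.09) and plKO Puro (0.20 ± 0.09), and passed against neither. In MDA-MB-468 the carnitine transporter SLC22A5 rose (0.37 ± 0.09) and CPT1A fell (-0.53 ± 0.09), and 0 were called with EZH2 cDNA.

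Around PROM1, 6 of 8 apical membrane genes were tested. CEACAM1 fell by 1.60 ± 0.12 with shEED (adjusted p = 5.27e-06) and rose by 0.85 ± 0.12 with EZH2 cDNA (adjusted p = 0.00574), the 1 gene called there. CEACAM1 averaged 5.75 with shEED, against 7.34 in set b, 6.01 in set a and 6.28 in plKO Puro, and it did not pass against set a (-0.26 ± 0.12, adjusted p = 0.103). With EZH2 cDNA it averaged 7.13, under set b. The sialomucin gene PODXL fell by 0.88 ± 0.09 with shEED and by 0.50 ± 0.09 in MDA-MB-468, and 0 were called with shEZH2 in HCC70. In the prolactin and STAT5 list, 12 of 17 genes were tested. LTF, also in the progenitor list, was the 1 gene called with shEZH2 in HCC70, the STAT5 target CISH the 1 gene called in MDA-MB-468 (0.45 ± 0.11, higher), the receptor TNFRSF11A the 1 gene called with shEED (-0.56 ± 0.08), and 0 were called with EZH2 cDNA.

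Likeness to KIT was measured over the 8 group means, each gene centred on its own mean, as the root mean square difference among 18409 genes. HEY2, a transcriptional repressor downstream of Notch, was nearest at 0.34 log2 units. It was followed by EPB41L3 at 0.75, DTNA at 0.76, the zinc exporter SLC30A1 at 0.77 and LCAL1 at 0.78. HEY2 read 5.48 and 5.30 with shEZH2 in HCC70, against 7.25 and 7.08 in set a, and 8.47 and 8.33 with shEED, against 7.24 and 7.20 in set b. HEY2 was chosen for likeness to KIT, so its values are a description. It was -1.77 with shEZH2, 1.18 with shEED, -0.59 with EZH2 cDNA and -0.14 in MDA-MB-468. Of the other 4 genes, DTNA had the lowest shEZH2 change in HCC70, at -0.20.

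**Figure D4:**
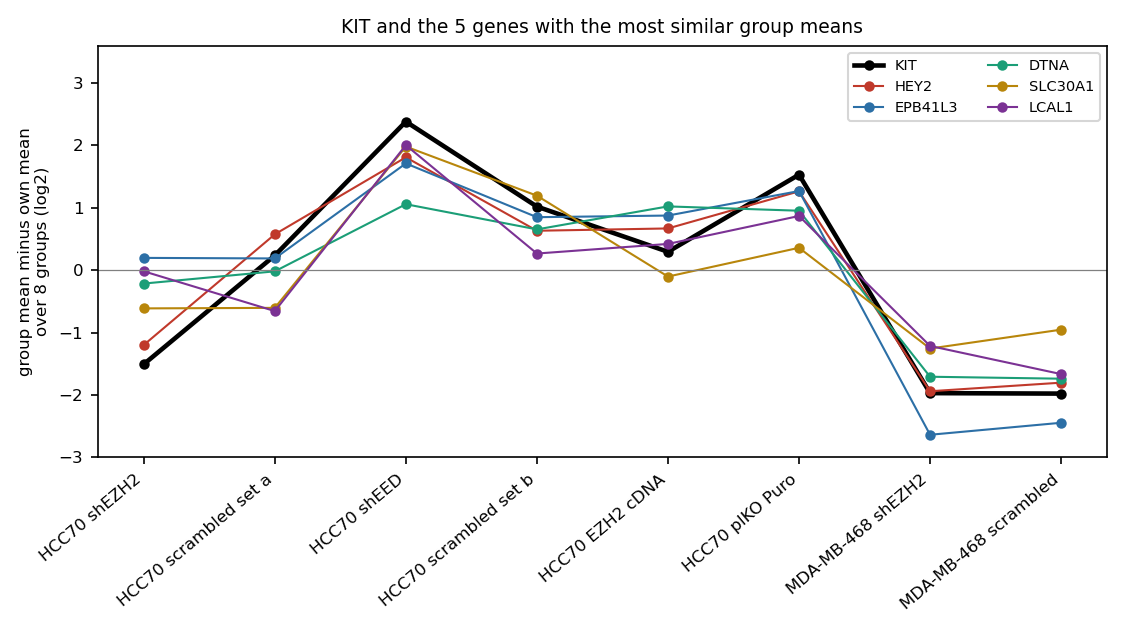
Group means of KIT and of the 5 genes most like it in the 8 groups, in log2 units after each gene's mean over the 8 groups was subtracted. KIT and HEY2 are lowest in HCC70 shEZH2 among the HCC70 groups and highest in shEED, and lines join groups only to guide the eye.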

How the data were processed

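Total RNA of HCC70 and MDA-MB-468 was measured on 16 arrays. Each array has 1 deposited log2 signal for a transcript cluster, and the authors made these with RMA in Affymetrix Expression Console, per the submitters' processing notes. RMA corrects background, normalizes between arrays and summarises probes, and it compresses differences of dim clusters. Neither the software versions nor the genome build of the clusters is given in the sources used here. Arrays give no read depth, so the number of arrays limits the precision, and scan dates were not among the values used here.

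Gene symbols came from the platform annotation. Of 33297 clusters, 19460 had 1 symbol, 1754 several and 12083 none. Clusters reaching log2 6 on at least 2 arrays were tested (16175 of 33297). Using limma 3.58.1 under R 4.3.3, lmFit estimated the 8 group means from the 16 arrays together and eBayes gave two-sided tests, with Benjamini-Hochberg adjustment over the tested clusters within each comparison, and the script was tested on simulated data. The design gives each treatment its own control. The sources do not state whether plKO Puro and the EZH2 cDNA vector share a backbone. That comparison may thus also hold a difference between vectors, which was not tested. Set a was taken for shEZH2 and set b for shEED from the sample codes, with other controls as alternatives. Floors, normalization, variance model, replicate block and arrays left out were also varied.

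The members and the 8 lists of related genes were chosen with earlier results of these data known. From each list up to 4 called genes per comparison, those with the largest changes, were named, with EZH2, EED and the 5 genes most like KIT. Promoter sequences are from RefSeq (GRCh38.p14).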

Additional observations from a re-analysis of the deposited data

Results flagged for a closer look

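The response to shEZH2 differed between the lines in 4 of the 7 tested genes, by limma's contrast of the change in HCC70 minus the change in MDA-MB-468. KIT gave -1.75 (adjusted p = 0.000188), with a fall in HCC70 and a change of 0.01 in MDA-MB-468. PROM1 gave -0.58 (adjusted p = 0.0153), with a fall in both lines that was larger in HCC70. BBOX1 gave 1.08 (adjusted p = 0.000543) and EHF gave 0.84 (adjusted p = 0.00416), both with a fall in MDA-MB-468. In HCC70 they changed by -0.05 and 0.10 and did not pass. KIT was under log2 6 in both MDA-MB-468 groups and BBOX1 in both HCC70 groups, levels at which signals are compressed. BBOX1 was tested only because both MDA-MB-468 scrambled arrays reached log2 6. The contrast shares its HCC70 arrays with the comparison of shEZH2 with set a. With set b in place of set a, BBOX1 lost the call (0.39, adjusted p = 0.0637) and CD14 gained it (-0.46, adjusted p = 0.0354). Groups of 2 arrays are too small to test for single arrays that stand apart.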

How the results depend on the processing

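Of 1095 values of single genes recomputed under other settings, 976 kept their direction and side of the threshold, 42 lost the call, 25 gained it, 12 turned round and 40 uncalled values moved. Of 316 counts, 243 stayed within 1.5 times and 73 did not. The choice of HCC70 control moved most. With the scrambled sets exchanged, the clusters called came to 4325 for shEZH2 (5 members, SLPI at -0.40), 5940 for shEED (PROM1 at 0.27 and BBOX1 at 0.16), 6843 for the difference of shEZH2 and shEED changes (5 members, BBOX1 at -0.90 and SLPI at -0.59) and 2763 for that of shEZH2 and EZH2 cDNA changes (4 members, BBOX1 at -0.46). With both sets as controls they came to 3048 for shEZH2, 4465 for shEED (2 members), 5169 and 1682 for those differences. With set a alone PROM1 between the lines was -0.069, and with set b alone SLPI was 0.010. With all 6 control arrays as 1 group, 2 members were called for shEED, and 7 clusters and 0 members for EZH2 cDNA. Chosen after seeing the data, plKO Puro as the control gave 3977 clusters for shEZH2 and PROM1 at 0.10 for shEED. Set a as the control of EZH2 cDNA, also chosen after seeing the data, gave 4227 clusters, 3 members, KIT at 0.058 and BBOX1 at 0.45, and set b gave 2 members and PROM1 at -0.44.

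Fits of only the 4 arrays compared called 276 clusters for shEZH2, 21 clusters and 0 members for MDA-MB-468, 4439 for shEED, and 0 clusters and 0 members for EZH2 cDNA. Without a floor the clusters called were 848 for MDA-MB-468, 88 for EZH2 cDNA and 190 for set b minus plKO Puro. At a floor of log2 7, BBOX1 was no longer tested and 1 member was called for set a minus plKO Puro. Centring on array medians gave 88 clusters for EZH2 cDNA, 677 clusters and 1 member for shEZH2 minus shEED, and 186 clusters for set b minus plKO Puro. For the last comparison, 2 members were called among clusters with 1 symbol and likewise after another quantile normalization.

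With 1 array left out, whose partner is then assumed to vary like the other groups, the clusters called ran from 688 (set a replicate 2) to 1977 for shEZH2, from 231 (scrambled replicate 2) to 1552 for MDA-MB-468, from 1013 (set b replicate 1) to 1128 for shEED and from 14 (EZH2 cDNA replicate 2) to 97 for EZH2 cDNA. They ran from 921 to 2633 for the difference between lines, from 461 to 1522 (1 to 4 members) for shEZH2 minus shEED and from 460 to 1140 for shEZH2 minus EZH2 cDNA. Between controls they ran from 1604 to 2040 for set b minus set a, from 2195 to 3313 for set a minus plKO Puro and from 44 to 216 for set b minus plKO Puro. The cause was not tested.

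Replicate numbers did not pair the arrays: over 28 pairs of groups, deviations of same-numbered arrays correlated at -0.25 to 0.28. With the replicate block 1 member call changed, BBOX1 in shEZH2 minus shEED (0.47, adjusted p = 0.0439). Another cluster for a gene could not be tried, as each had 1. Among the members, dim signals limit KIT, BBOX1 and ELF5. Some named list genes were also dim, such as ETV1, ETV5, SPDEF, TLR2 and WFDC12.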

Other observations

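KIT lies between PDGFRA and KDR on chromosome 4, both receptor tyrosine kinases. PDGFRA, the receptor of platelet-derived growth factor, read 5.05 and 5.15 with shEZH2 in HCC70, against 5.03 and 4.58 in set a, and 4.41 and 4.45 with shEED, against 5.27 and 5.28 in set b. It stayed under log2 6 in all 8 groups. KDR, a receptor of vascular endothelial growth factor, was under log2 6 in every HCC70 group and read 5.64 and 5.23 with shEZH2 in MDA-MB-468, against 6.10 and 6.28 in scrambled. Among the HCC70 groups PDGFRA was lowest in shEED (mean 4.43), where KIT was highest (mean 8.46).

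Without any floor ELF5 entered the test with 33297 clusters. Its differences were -0.26 ± 0.13 with shEZH2 in HCC70 (limma adjusted p = 0.363), -0.04 ± 0.13 with shEED (adjusted p = 0.96), -0.18 ± 0.13 with EZH2 cDNA (adjusted p = 0.865) and -0.12 ± 0.13 with shEZH2 in MDA-MB-468 (adjusted p = 0.725). ELF5 and EHF are neighbours on chromosome 11.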
